A study of Zea mays with 6 samples.

Results

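ZmNAC24 is a maize transcription factor of the NAC family. NAC proteins bind DNA through a conserved domain at their amino end, usually as dimers, and are known in plants for roles in root and shoot development, cell wall formation and responses to stress. DAP-seq (DNA affinity purification sequencing) fixes a protein made in vitro to beads, offers it a library of naked genomic DNA and sequences what stays bound, so that chromatin plays no part in it. Much of the maize genome between genes consists of transposable elements, and some regulatory sites of maize genes are known to lie far from the gene they act on.

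The peaks described here are the NAC24 peaks that stand alone and lie far from any listed gene. They were chosen by position, from the authors' deposited peak table: no other peak within 10 kb on the same chromosome, and more than 5 kb from the nearer listed gene. This gave 233 of the 1132 peaks of the list (20.6%). They make up 39.3% of the 593 isolated peaks and 38.8% of the 601 peaks more than 5 kb from a gene. Of the others, 360 were isolated peaks in or within 5 kb of a gene, 116 lay in pairs and 423 in groups of 3 or more.

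The series holds 3 libraries with NAC24 fused to a HALO tag and 3 with GFP fused to the same tag as a negative control, each protein made in a wheat germ extract. DNA came from untreated primary roots of the inbred line B73, from seeds kept without light at 28 °C over 2 days, with the same root DNA offered to both proteins. The table holds 1 score and 1 p-value for a peak and 0 columns of values per library. Depth, replicate spread and the level in the GFP-HALO libraries therefore could not be set beside any value, and no comparison below has a test. Whether the p-value of a peak sets NAC24 against GFP-HALO is not given in the sources used here. Positions are on B73 RefGen v4.

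The scores of isolated gene-distant peaks spanned much the same range as those of isolated peaks at genes, apart from the highest. Their median peak shape score, a value per peak whose scale is not explained in the sources used here, was 2.49 (95% interval 2.24 to 2.57, n = 233), against 2.39 (2.24 to 2.55, n = 360) for isolated peaks in or beside genes and 2.68 (2.52 to 2.79, n = 423) for peaks in groups. The quartiles were 1.92 and 3.28 in the gene-distant peaks, and 1.93 and 3.35 in the isolated peaks at genes. An unadjusted p of at most 0.001 was listed for 68 of the 233 (29.2%, 23.4 to 35.5), beside 31.8% of the whole list and 30.6% (25.8 to 35.6) of the isolated peaks at genes. At most 0.005 was listed for 100 of the 233 (42.9%, 36.5 to 49.5), beside 47.3% of the whole list. It was listed for 43.9% (38.7 to 49.2) of the isolated peaks at genes and 52.7% (47.8 to 57.6) of the peaks in groups. The shares of the 233 lie near those of the list, which includes them. The intervals overlap, with that of the groups only narrowly. Strong and weak below refer to this score alone. The p-value is its upper normal tail, so medians of score and shares by p are not separate evidence.

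**Figure D1:**
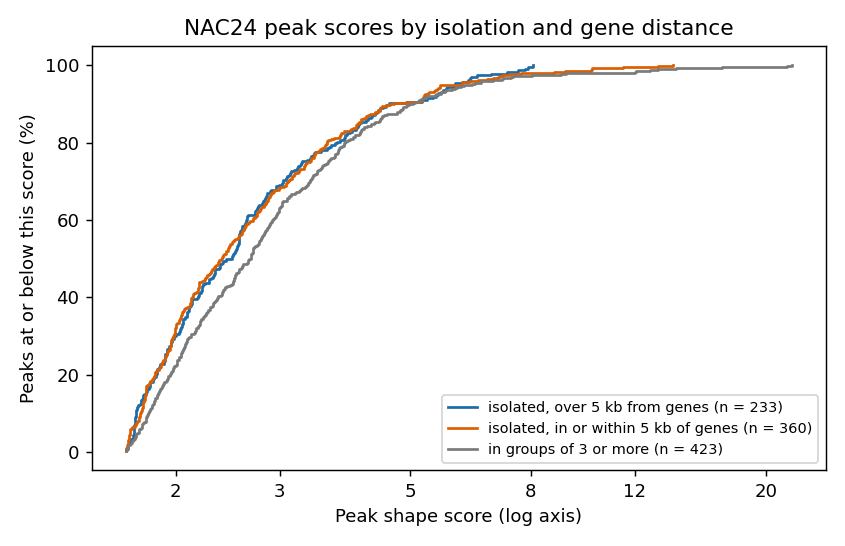
The share of peaks (vertical axis, %) at or below each peak shape score (horizontal log axis) is drawn for the isolated gene-distant peaks, for isolated peaks in or within 5 kb of a gene and for peaks in groups of 3 or more. The curves of both kinds of isolated peak run together through the medians of 2.49 and 2.39, and that of the gene-distant peaks ends at 8.07.

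At the weak end, 70 of the 233 gene-distant peaks (30.0%) scored under 2, close to the floor of the list at 1.64, against 115 of 360 isolated peaks at genes (31.9%) and 94 of 423 peaks in groups (22.2%). A p above 0.01 was listed for 107 of the 233 (45.9%), beside 43.4% of the whole list. The weakest gene-distant peak scored 1.65 (chromosome 1, 134083122 to 134083329, p = 0.0494 in the authors' deposited table), and the 4 next weakest scored 1.66, to 2 decimals, on chromosomes 4, 5 and 8.

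At the strong end, 22 gene-distant peaks (9.44%) scored above 5, against 34 isolated peaks at genes (9.44%). None of the 20 highest scores of the list, which run from 8.77 to 22.2, belonged to a gene-distant isolated peak. The strongest of them held place 21 in the list. They held 9 of the 50 highest scores (18%) and 22 of the 100 highest (22%), near their share of all peaks.

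The strongest isolated gene-distant peak lay on chromosome 3 at 56130862 to 56131090. Its score was 8.07, with p = 3.54e-16 in the authors' deposited table. It was 109673 bp from Zm00001d040650 on the side of higher coordinates and 170497 bp from the gene on the other side. Second came chromosome 2 (90492106 to 90492333) with a score of 7.91, at 86153 bp from Zm00001d004196. After it came chromosome 8 (48116067 to 48116286) with 7.82, at 67267 bp from its nearer gene. These 3 peaks thus lay well inside long stretches without a listed gene, each of them the single peak between its genes.

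Distances to genes varied widely among the next strongest. A score of 7.61 stood on chromosome 3 (18166500 to 18166725), 15491 bp away from a gene. A score of 7.30 stood on chromosome 1 (216343516 to 216343729), 12930 bp away. Scores of 6.84 and 6.48 belonged to peaks on chromosome 7 (108963507 to 108963718, 67956 bp from a gene) and chromosome 2 (11217528 to 11217756, 38173 bp from a gene). The places 8 to 10 were taken by peaks on chromosomes 3 (start 8493314), 8 (start 75592135) and 9 (start 37169262), with scores of 6.33, 6.30 and 6.25. The 20 strongest scored at least 5.47, came from 9 of the 10 chromosomes and lay 11561 to 258504 bp from the nearer gene. On chromosome 4, which holds 35 gene-distant isolated peaks, 0 of these 20 were found, and its highest score was 4.92.

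Of the 425 genes listed beside these peaks, 5 carried a symbol, and 4 of those are described here. NIP3-1 belongs to the NIP aquaporins, channels for water and small solutes such as boric acid, and aquaporins are a stated interest of the series. Its peak on chromosome 1 (227514691 to 227514912) scored 2.38 and held place 122 of the 233, near the middle. The gene lay 61611 bp away, and the gene on the other side 24878 bp, in a gap of 86711 bp with no second peak. The next peak was 4494267 bp off.

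EXPB1 encodes a beta-expansin, a protein that loosens the grass cell wall. Its peak, on chromosome 9 from 120098774 to 120098994, was the strongest of the 4. It scored 3.14, had p = 0.000854 in the authors' deposited table and held place 65. It lay 11766 bp from EXPB1 and 9019 bp from the gene on the other side, in a gap of 21006 bp. Of the 4 genes, EXPB1 was the one nearest to its peak.

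FEA2 is a receptor-like protein that limits the size of the shoot meristem. Its peak, on chromosome 4 from 136665291 to 136665505, was 100365 bp off, scored 1.86 and held place 184. The peak listed beside CAF1, on chromosome 7 from 43607217 to 43607469, was 173568 bp off, scored 1.77 and held place 199. Both peaks are thus in the weak part of the list, and neither is close to the named gene.

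The distance to the nearer gene, which the choice of peaks used, had a median of 38826 bp, with quartiles of 16148 and 69449 bp and a maximum of 482424 bp. More than 50 kb away lay 84 of the 233 (36.1%), and more than 100 kb away lay 43. A gene was listed on both sides for 229 of them, and the stretch between these genes had a median length of 137442 bp. The nearer gene was on the side of lower coordinates for 114 and on the side of higher coordinates for 115. The nearer distance was a median of 0.393 times the farther one.

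Within these peaks the score did not fall steadily with distance from genes. The median score was 2.37 at 5 to 10 kb (n = 28), 2.81 at 10 to 20 kb (n = 49), 2.39 at 20 to 50 kb (n = 72), 2.37 at 50 to 100 kb (n = 41) and 2.33 beyond 100 kb (n = 43). The 95% intervals of these medians overlap, for example 2.22 to 3.39 at 10 to 20 kb and 2.03 to 2.85 at 5 to 10 kb. Across the 233 peaks Spearman's rho of score and distance was -0.095 and Pearson's r -0.063, for peaks of 1 list that share its calling.

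The share of peaks with a p of at most 0.001 was 21.4% (6 of 28, 8.30 to 41.0) at 5 to 10 kb, 42.9% (21 of 49, 28.8 to 57.8) at 10 to 20 kb and 27.8% (20 of 72, 17.9 to 39.6) at 20 to 50 kb. It was 29.3% (12 of 41, 16.1 to 45.5) at 50 to 100 kb and 20.9% (9 of 43, 10.0 to 36.0) beyond 100 kb. The 31.8% of the whole list lies inside each of these intervals. Between 5 and 10 kb the highest score was 4.04. A score above 5 was held by 0 of these 28, beside 9.44% of all 233 and 9.36% of the whole list. Beyond 100 kb the highest was 8.07, the strongest of all 233. The differences between distance ranges were not tested.

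**Figure D2:**
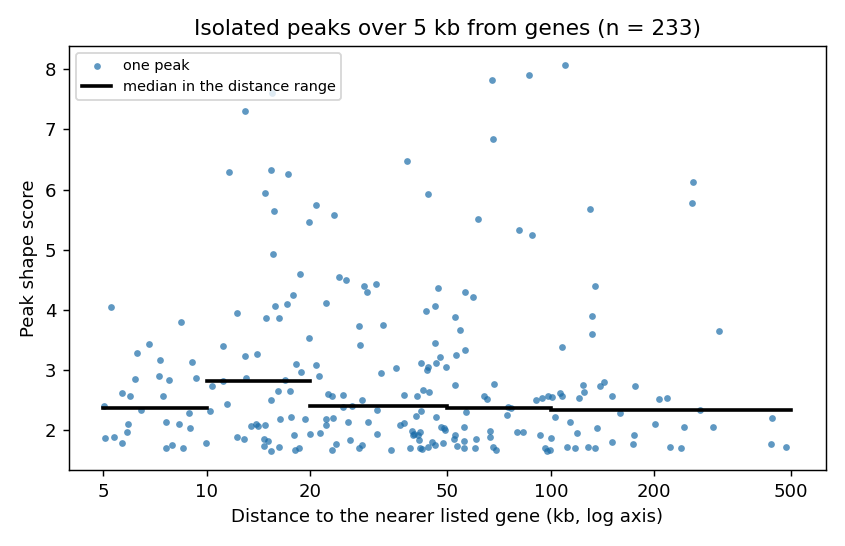
Each point is 1 of the 233 isolated gene-distant peaks, with its distance to the nearer listed gene (kb, log axis) and its peak shape score. Black lines mark the median score in each distance range, from 2.33 to 2.81. Scores above 5, held by 9.44% of the 233, occur from 10 kb to beyond 200 kb but in 0 of the 28 peaks below 10 kb.

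The 10 peaks farthest from genes were all at least 238773 bp from one and had a median score of 2.13. The farthest of all (chromosome 2, 99119020 to 99119232) was 482424 and 785120 bp from its genes and scored 1.71. It was followed by chromosome 8 (32564295 to 32564514) with 2.20 at 441324 bp and chromosome 7 (82367827 to 82368048) with 1.76 at 436045 bp. A p of at most 0.001 was listed for 3 of the 10, near the 29.2% of all 233 and the 31.8% of the whole list. Among these 3 were 1 on chromosome 5 (113721137 to 113721369) scoring 3.64 at 308121 bp and 1 on chromosome 7 (99454120 to 99454341) scoring 6.12 at 258504 bp. The third, on chromosome 6, belongs to the run of peaks described below.

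Isolated gene-distant peaks were spread almost evenly along the chromosomes. The outer zones, meaning 20% of the length at each end and 40% in sum, held 85 of 232 (36.6%, 30.4 to 43.2), against 220 of 357 isolated peaks at genes (61.6%, 56.4 to 66.7) and 126 of 410 peaks in groups (30.7%, 26.3 to 35.4). Each peak of a group has another peak within 10 kb, so places within a group are not independent and the interval for groups is too narrow. The central 20% held 49 of the 232 (21.1%, 16.1 to 26.9), against 30 of the 357 (8.40%, 5.74 to 11.8). The 5 steps from the end to the middle held 42, 43, 51, 47 and 49 of the gene-distant peaks. Gene distance chose the peaks, maize genes are known to be denser towards the chromosome ends, and gene density was not taken into account, so place and gene distance cannot be told apart in this contrast.

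**Figure D3:**
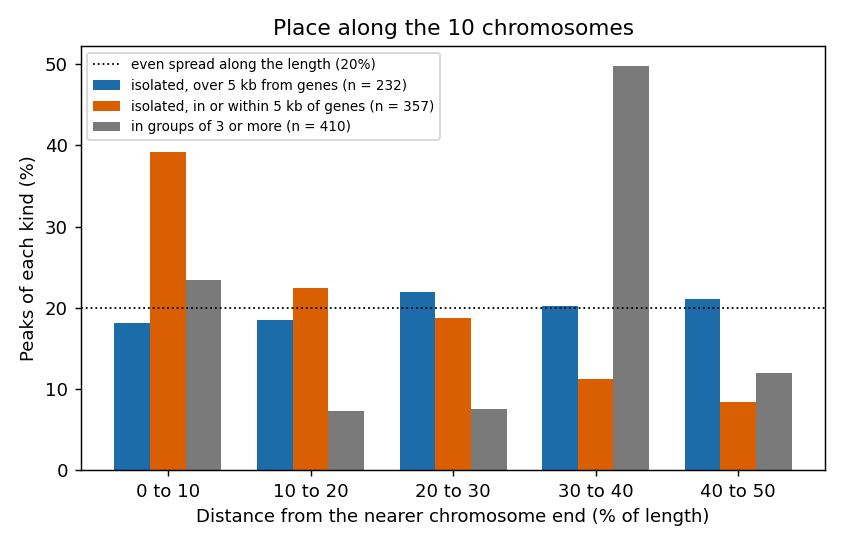
Bars give the share of peaks (%) by distance from the nearer chromosome end, in steps of 10% of the chromosome length, with a dotted line at the 20% of an even spread. Isolated gene-distant peaks run from 18.1% to 22.0%, while isolated peaks at genes have 39.2% at the ends and 8.40% in the middle. Peaks in groups, each counted singly although members of a group lie together, reach 49.8% in the fourth step.

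Among the gene-distant peaks, those nearer to genes tended weakly to lie nearer to the chromosome ends, with a rho of 0.216 between both distances (n = 232). Of the 28 at 5 to 10 kb from a gene, 17 lay in the outer zones (60.7%, 40.6 to 78.5), against 12 of 43 beyond 100 kb (27.9%, 15.3 to 43.7). The median distance to the nearer gene was 25578.5 bp in the outermost step and 46177 bp in the central one. Median scores showed no steady course, at 2.55, 2.28, 2.38, 2.57 and 2.22 from the ends to the middle, with a rho of 0.010 (n = 232). A p of at most 0.001 was listed for 17 of 42 in the outermost step (40.5%, 25.6 to 56.7) and 8 of 43 in the next (18.6%, 8.39 to 33.4). The following steps had 23.5%, 29.8% and 34.7%, beside 31.8% of the whole list. All these intervals overlap, rho describes a steady rise or fall only, and the differences between steps were not tested.

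Chromosomes differed in how many isolated peaks were gene-distant. Chromosome 5 held 12 of them and 59 isolated peaks at genes, so that 16.9% (9.05 to 27.7) of its isolated peaks were gene-distant, against 220 of 518 (42.5%, 38.2 to 46.9) on the other chromosomes. Chromosomes 4 and 2 had the highest shares, with 35 of 64 (54.7%, 41.7 to 67.2) and 26 of 49 (53.1%, 38.3 to 67.5). These were the chromosomes on which gene-distant isolated peaks outnumbered those at genes. Chromosome 10 held 10 of 37 (27.0%, 13.8 to 44.1).

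Set against length, chromosome 5 held 5.36 gene-distant isolated peaks per 100 Mb, the lowest value, and 26.4 isolated peaks at genes per 100 Mb, the highest. Chromosome 4 held the most gene-distant ones, 14.3 per 100 Mb, against 11.8 at genes. Chromosome 5 was picked out after the values were seen, the intervals cover counting error only, and no test was made. Its 12 gene-distant peaks scored 1.66 to 5.57, the highest of them at 25457776 to 25458005 and 23429 bp from a gene.

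**Figure D4:**
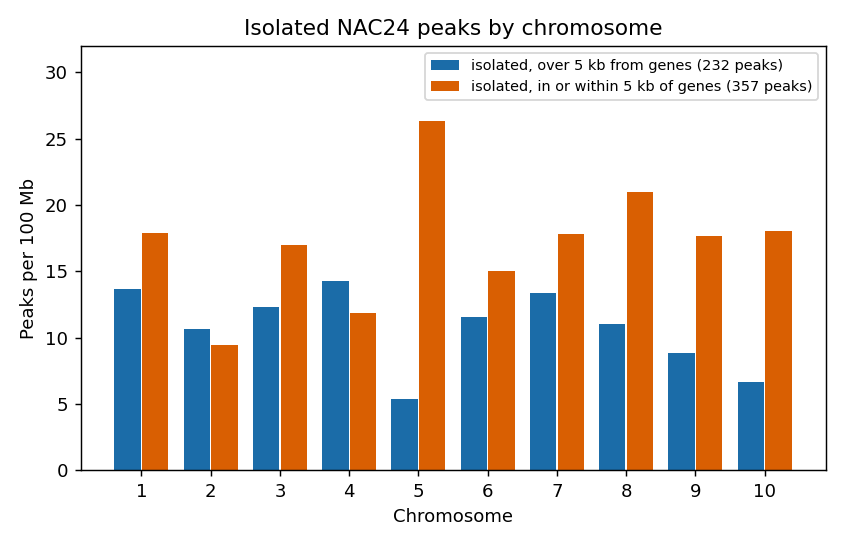
Bars give isolated peaks per 100 Mb on each of the 10 chromosomes, with gene-distant peaks on the left and peaks in or within 5 kb of genes on the right of each pair. Chromosome 5 has the lowest bar for gene-distant peaks, 5.36, and the highest for peaks at genes, 26.4, while on chromosomes 2 and 4 the gene-distant bar is the higher one.

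The share of these peaks with a p of at most 0.001 rests on small numbers per chromosome. It was highest on chromosome 2, with 11 of 26 (42.3%, 23.4 to 63.1), and lowest on chromosome 6, with 2 of 20 (10%, 1.23 to 31.7), beside 31.8% of the whole list. The intervals of all 10 chromosomes overlap, and no test was made. Median scores were between 2.11 on chromosome 1 and 2.70 on chromosome 8.

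Standing alone at 10 kb did not mean standing alone at a larger scale. The next peak of any kind was a median of 923689.5 bp away, and for 111 peaks more than 1 Mb away, but for 38 it lay between 10 and 50 kb. Of these 38, 19 had another gene-distant isolated peak as the next one, 6 an isolated peak at a gene, 6 a peak of a pair and 7 a peak of a group. Their median score was 2.54 (2.09 to 2.77), against 2.38 (2.13 to 2.65) for the 111 beyond 1 Mb. A p of at most 0.001 was listed for 21.1% (9.55 to 37.3) of them, against 30.6% (22.2 to 40.1), so the median and the share differ in opposite directions and both pairs of intervals overlap. The 229 peaks with genes on both sides lay in 212 stretches between genes, and 49 of them shared their stretch with at least 1 other peak.

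The run with the most peaks lay on chromosome 6, where 8 isolated gene-distant peaks fell between 9846856 and 10696313, a span of 849 kb. Of these, 5 lay between the same genes, the most in any stretch. Their scores were 3.90 at 10407242, 2.05 at 10518796, 5.77 at 10533546, 1.70 at 10557873 and 2.55 at 10696113, all of these being start positions. The strongest of them (p = 3.94e-09 in the authors' deposited table) lay almost midway, 258224 and 263108 bp from the genes on either side. Its neighbours, 14541 and 24109 bp away, scored 2.05 and 1.70, so strong and weak peaks stood side by side.

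A run of 4 lay on chromosome 4 from 182155679 to 182455734, all between the same genes, with scores of 1.92 to 2.57. Another 5 runs of 3 peaks, each within 1 Mb of the next, lay on chromosomes 1 and 3. In all, 59 of the 233 had another isolated gene-distant peak within 1 Mb. The 3 on chromosome 3 between 136725513 and 138185811 were all weak, with scores of 1.70 to 1.79.

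At the other end, the 11 peaks with the most empty surroundings, the last 2 of them tied as each other's next peak, had 5587687 bp or more to the next peak and a median score of 2.13. The most remote of them (chromosome 10, 57734461 to 57734668) had 9466319 bp to the next peak and scored 1.96. Next came chromosome 4 (146305867 to 146306077), scoring 3.45 with 8856345 bp to the next peak, and chromosome 3 (110202308 to 110202540), scoring 4.44 with 7547596 bp. The last had the highest score of the 11.

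In width, the gene-distant isolated peaks varied more than those at genes. The median was 218 bp (95% interval 216 to 221, range 192 to 327), against 215 bp (214 to 216, range 193 to 316) for isolated peaks at genes and 222 bp for peaks in groups. The SD over peaks was 23.1 bp, against 15.8 bp at genes. Wider than 250 bp were 25 of 233 (10.7%, 7.07 to 15.4), against 13 of 360 at genes (3.61%, 1.94 to 6.10), while the whole list had 11.3%. Narrower than 210 bp were 50 of 233 (21.5%), against 63 of 360 (17.5%).

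Wide peaks were lopsided. In all 25 wide gene-distant peaks the centre given by the authors lay more than 10 bp from the midpoint, 13 towards higher and 12 towards lower coordinates, against 15 of the 208 others (7.21%). From the centre, the shorter side measured a median of 107 bp (97 to 110) in the wide peaks and 105 bp in the others. The longer side measured 174 bp (143 to 219) in the wide peaks and 110 bp in the others, so the extra width lay on 1 side. All 13 wide isolated peaks at genes were off-centre too, as were all 17 wide peaks in pairs and all 73 in groups. Among their peaks of at most 250 bp, 4.03% at genes, 17.2% in pairs and 27.7% in groups were off-centre. The shorter side was at most 110 bp in wide and other gene-distant peaks alike. Any gene-distant peak wider than 250 bp must then have its centre more than 10 bp off the midpoint. The 25 of 25 thus follows from the width cut, given this limit on the shorter side, and is no separate result. For the other kinds of peak the shorter side was not measured, so their counts are a description only.

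**Figure D5:**
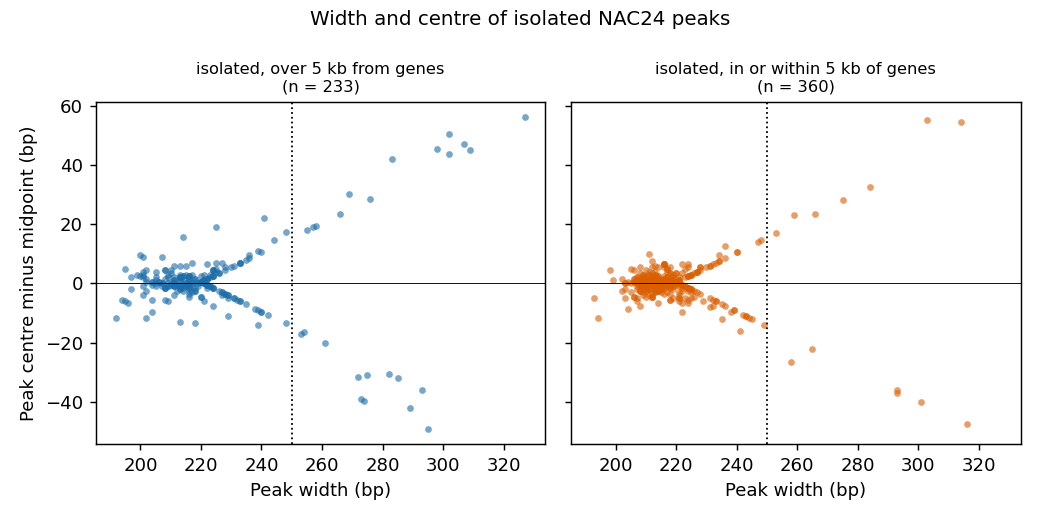
Each point is 1 isolated peak, gene-distant on the left and in or within 5 kb of a gene on the right, with its width (bp) and the distance of its centre from its midpoint (bp, positive towards higher coordinates). Beyond the dotted line at 250 bp the points form 2 arms, with 25 peaks in the left panel and 13 in the right.

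Score and width were weakly related among the 233, with a Spearman's rho of 0.251 and a Pearson's r of 0.085, both values coming from the same peak calling. A p of at most 0.001 was listed for 4 of 50 peaks under 210 bp (8%, 2.22 to 19.2) and 19 of 69 from 210 to under 220 bp (27.5%, 17.5 to 39.6). It was listed for 28 of 63 from 220 to under 230 bp (44.4%, 31.9 to 57.5) and 11 of 26 from 230 to 250 bp (42.3%, 23.4 to 63.1). Over 250 bp it was listed for 6 of 25 (24%, 9.36 to 45.1), beside 31.8% of the whole list. The highest scores in these ranges, from narrow to wide, were 3.90, 7.30, 8.07, 5.57 and 5.52. Narrow peaks were thus mostly weak, and the highest scores stood from 210 to under 230 bp. Of the 25 wide peaks, 5 lay in the outer zones of the chromosomes (20%, 6.83 to 40.7), an interval that includes the 36.6% of all gene-distant peaks.

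The values of peaks close to the thresholds are given for reference. Just inside the 5 kb limit lay peaks at 5010, 5037 and 5242 bp from a gene, with scores of 2.40, 1.86 and 4.04. Just outside it, isolated peaks at 4988, 4947 and 4873 bp scored 1.78, 1.68 and 2.29. Just inside the 10 kb limit, peaks with the next peak at 11175, 12505 and again 12505 bp scored 2.40, 3.12 and 1.91. Just outside it, gene-distant peaks with a neighbour at 8852, again 8852 and 8309 bp scored 2.72, 3.09 and 1.97. Between 8852 and 11175 bp there was no gene-distant peak, so the count does not turn on the exact limit there.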

How the data were processed

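Per the labels' protocols, 20 µg of root DNA was sheared by sonication for 30 min and 1 µg of adapter-ligated DNA was mixed with each bead-bound protein at 25 °C for 1 h. Eluted DNA went through 20 PCR cycles and was read from both ends, 150 bp each. The build is B73 RefGen v4, per the submitters' processing notes. Which aligner and peak caller were run, with which filters, whether the GFP-HALO libraries entered the calling and whether replicates were pooled is not given in the sources used here. A 2 stands in the name of the deposited table, and if this means replicate 2, all scores come from a single library.

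Each peak has a score and a p-value; both are the authors', as deposited, and are the same measurement on separate scales: the p-value is the upper normal tail of the score. Gene distances are those of the deposited table, from the peak edge, with 5′ and 3′ read as lower and higher coordinates.

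Peaks were grouped and counted with pandas 2.3.3, tested on simulated peaks. Shares carry exact binomial (Clopper-Pearson) 95% intervals and medians carry order-statistic ones, computed with SciPy 1.17.1; they take peaks as independent and cover counting error only. Chromosome length was taken as the end of the last peak. No test was made, since there are no values per library. The peaks described and the rule for naming (symbols, strongest, weakest, most distant, most remote, nearest to a threshold) were chosen with earlier results of these data known. Of the genes with a symbol, 1 is not reported here. Sequences and motifs were not analysed here, without a genome of this build.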

Additional observations from a re-analysis of the deposited data

How the results depend on the processing

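Of 73 alternatives over 8 results, 68 stayed within the interval of the reported value or, for counts, within 1.5 times, and 5 moved. For shares and medians this is the 95% interval. For score differences it joins the opposite ends of both medians' intervals, which is wider than a 95% interval of the difference. The setting with the intervals of the interval file holds the same 233 peaks and gave the reported values unchanged. Other settings also share many peaks with the reported set, so the 68 are not independent checks. With a list cut to peaks with p of at most 0.005, 129 isolated gene-distant peaks were left, their median score was 3.60 and 70.5% had a p of at most 0.001, since that setting leaves out weak peaks. The count was 104 where the genes on both sides had consecutive identifiers, a setting chosen after seeing the data, as was leaving out peaks that share their stretch between genes. The outermost 10% at either end held 18.1% of the peaks, a zone of smaller size by construction. The median score difference ranged from -0.042 to 0.11 against isolated peaks at genes and from -0.33 to 0.024 against groups, so neither kept its sign in all settings.

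Read depth is unknown, and no limit set by it can be given. No paired analysis was possible because values of single libraries are not part of the table.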

Other observations

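The word far rests on the genes the authors listed. Identifiers of this annotation are numbered along the chromosomes, and among 224 isolated gene-distant peaks with a numbered gene on both sides, 104 (46.4%) had consecutive numbers, 66 had 1 number skipped and 54 had 2 or more skipped, up to 7. Whether a skipped number stands for a gene that was not listed was not tested. Among the 20 strongest peaks 11 (55%) lay between consecutive numbers. The median score was 2.38 with consecutive and 2.57 with skipped numbers, and the median stretch between the genes was 121916 and 147091 bp.

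A single isolated gene-distant peak lay off the 10 chromosomes, on an unplaced contig, with a score of 2.12 and a gene listed 37408 bp away on 1 side. On chromosomes 1, 2, 5 and 6 the last peak of the list, which sets the length used here, was itself an isolated gene-distant peak. The interval file gave all 233 peaks, 227 with identical edges, and its single interval without a row in the table lay beside a group of peaks, 438 bp from the nearest.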
